A study of Sus scrofa with 6 samples.

Results

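MMP13, TIMP1 and POSTN encode a collagenase, an inhibitor of metalloproteinases and a matrix protein, and they were read here as 3 genes of 19465 in each of 3 deposited tables. They were chosen by name, with their measured values in these libraries already known. Each was found as 1 row per table: MMP13 as ENSSSCG00000014988, TIMP1 as ENSSSCG00000012277 and POSTN as ENSSSCG00000009361. RNA came from anestrous and estrous Landrace x Large White sows that had borne a first litter (primiparous sows). The labels put the anestrus down to inactive ovaries and describe the estrus of the other sows as normal. Intact hypothalamus, pituitary and ovary were sampled, which gave 6 libraries, 1 for each tissue and state. The labels name 3 sows in each state, and whether RNA of several sows was pooled is not stated. With 1 library per group there was no test of the states within a tissue, and each such comparison describes these libraries. A count test of the states over all 6 libraries, with tissue as a block, is given only as an alternative.

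Matrix metalloproteinases are zinc enzymes that cut the proteins of the extracellular matrix. Most are secreted as inactive precursors. MMP13 (collagenase 3) cuts the triple helix of fibrillar collagens. TIMP1 (tissue inhibitor of metalloproteinases 1) binds the active site of many of these enzymes and blocks it. POSTN (periostin) is a matricellular protein, a secreted protein that binds collagen, fibronectin and tenascin and acts on cells through integrins. The ovary rebuilds its matrix as follicles grow, rupture, become corpora lutea and regress, and metalloproteinases and their inhibitors take part in that cycle.

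The values below are reads recovered from the deposited normalised counts, normalised counts within a tissue, and CPM, a gene's reads scaled to the same total of gene reads in every library, where tissues are set side by side. The 3 tables were normalised separately, so levels across tissues rest on CPM. Gene reads per library lay between 15314325 and 17384789. Marker genes were checked against the labelled tissues. Summed CPM of 7 anterior pituitary genes was 259550 and 248811 in the anestrous and estrous pituitary, against 100.1 and 104.5 in the ovary libraries. In the anestrous and estrous hypothalamus it was 199.7 and 458.7. Summed CPM of 6 neuron genes was 3267 and 2375 in the anestrous and estrous hypothalamus, against 2.31 and 2.07 in the anestrous and estrous ovary. In the anestrous and estrous pituitary it was 434.4 and 494.6. Intervals are 95% and exact (Poisson for a level, conditional binomial for a ratio). They cover counting error only: the labels name no molecular identifiers, so reads are not counted as separate molecules, and there were no replicate libraries. The text gives the anestrous library over the estrous one as a ratio without a pseudocount, and as a log2 fold with a pseudocount of 1, which understates differences of genes with few reads.

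In the ovary all 3 genes were higher in the anestrous library, by factors that ran from 11.3 for POSTN to 3225 for MMP13. In the hypothalamus TIMP1 and POSTN were lower in the anestrous library, and in the pituitary TIMP1 was higher and POSTN lower. MMP13 was close to absent from every library except that of the anestrous ovary.

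**Figure D1:**
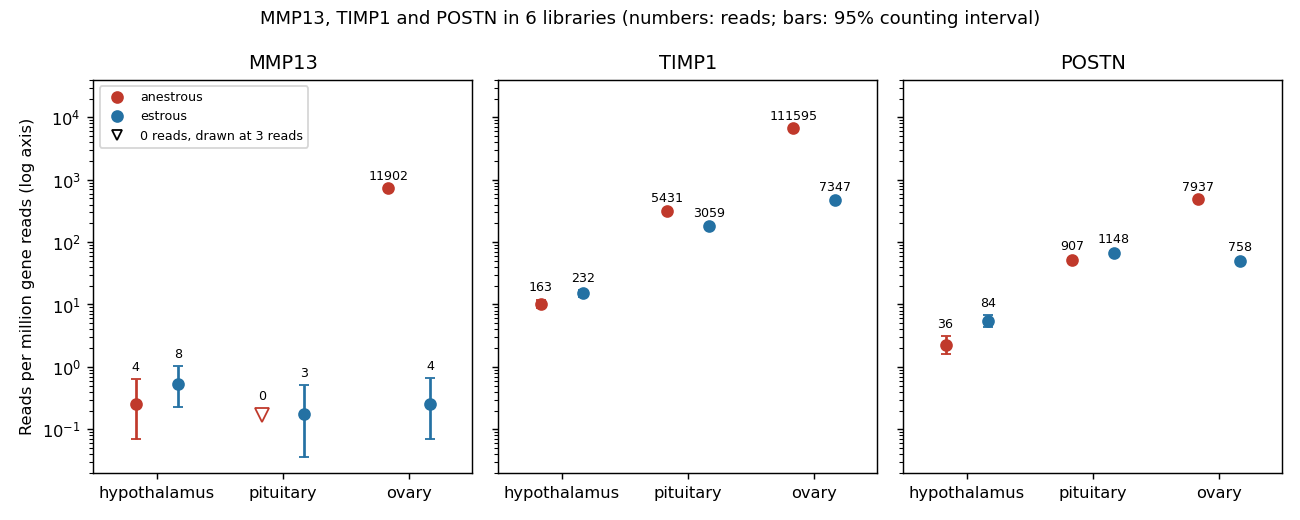
CPM (log axis) of MMP13, TIMP1 and POSTN in the anestrous and estrous libraries of each tissue, with 95% counting intervals and the number of reads above each point. The anestrous ovary stands above the other 5 libraries for each gene, with 11902, 111595 and 7937 reads.

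MMP13 gave 11902 reads in the anestrous ovary and 4 in the estrous ovary. It gave 4 and 8 reads in the anestrous and estrous hypothalamus, and 0 and 3 in the anestrous and estrous pituitary. The 5 libraries other than the anestrous ovary held 19 reads of it together. As CPM, the level was 724 in the anestrous ovary (711 to 737), against 0.258 in the estrous ovary (0.0704 to 0.661). It was 0.253 and 0.522 in the anestrous and estrous hypothalamus and 0.176 in the estrous pituitary. For the 0 reads in the anestrous pituitary, the floor of 3 reads is 0.173 CPM and the exact interval reached 0.212 CPM. Among these 5 libraries the counting intervals overlapped in every pair but one: that of the estrous hypothalamus began at 0.226 CPM, just above the anestrous pituitary.

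The normalised count of MMP13 in the ovary was 12390 in the anestrous library and 3.84 in the estrous library. That ratio was 3225 (1259 to 11837), and its width comes from the 4 estrous reads. The log2 fold was 11.32, the highest of 10902 ovarian genes with a mean normalised count of at least 50. The next genes in that order were SNCG with 466 and 0 reads in the anestrous and estrous ovary and, after a gene without a symbol, S100A12 with 3401 and 10 reads (log2 fold 8.38). In the hypothalamus the ratio of MMP13 was 0.516, with an interval from 0.114 to 1.93 that includes equal levels. Both pituitary libraries were at or under 3 reads, so no ratio is given there. In the authors' deposited table MMP13 had a p-value of 2.3e-16 and an adjusted p-value of 3.68e-12 in the ovary, the lowest of 15972 genes. Those p-values compare 2 libraries and not the states.

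TIMP1 was the gene of the 3 with many reads in every library. It gave 111595 reads in the anestrous ovary and 7347 in the estrous ovary. It gave 5431 and 3059 reads in the anestrous and estrous pituitary, and 163 and 232 in the anestrous and estrous hypothalamus. The level in the anestrous ovary was 6789 CPM, or 0.679% of all its gene reads, against 474 CPM and 0.0474% in the estrous ovary. The pituitary levels were 312 and 179.8 CPM in the anestrous and estrous libraries. Those of the hypothalamus were 10.3 and 15.1 CPM. The ovary libraries were highest, then those of the pituitary and then those of the hypothalamus, with the anestrous library above the estrous one in the ovary and pituitary and below it in the hypothalamus, and the counting intervals of no 2 neighbours in this order overlapped.

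The ovarian ratio of TIMP1 was 16.5 (16.1 to 16.9), a log2 fold of 4.04, at place 54 of 10902. The pituitary ratio was 1.88 (1.80 to 1.97), a log2 fold of 0.91 and so just under 2-fold, at place 164 of 10720 from the highest. The hypothalamic ratio was 0.725 (0.590 to 0.890), a log2 fold of -0.46. The authors' deposited table gave TIMP1 an adjusted p-value of 0.897 in the ovary (p-value 0.0598), of 0.169 in the pituitary and of 1 in the hypothalamus. In that deposited ovary table TIMP1 stood at place 1065 of 15972 by p-value.

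POSTN gave 7937 reads in the anestrous ovary and 758 in the estrous ovary. It gave 907 and 1148 reads in the anestrous and estrous pituitary, and 36 and 84 in the anestrous and estrous hypothalamus. The levels were 483 and 48.9 CPM in the ovary, 52.2 and 67.5 CPM in the pituitary and 2.28 and 5.49 CPM in the hypothalamus, in the anestrous and estrous library of each tissue. The anestrous ovary was highest and the estrous pituitary next. The anestrous pituitary (48.8 to 55.7) and the estrous ovary (45.5 to 52.6) overlapped in their counting intervals. The anestrous hypothalamus was lowest, and the estrous hypothalamus lay next above it.

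The ovarian ratio of POSTN was 11.3 (10.5 to 12.2), a log2 fold of 3.50, at place 85 of 10902. In the pituitary the ratio was 0.837 (0.767 to 0.914), a log2 fold of -0.26. In the hypothalamus it was 0.442 (0.291 to 0.661), a log2 fold of -1.16. The authors' deposited table gave POSTN an adjusted p-value of 0.0233 in the ovary (p-value 0.000124), and of 1 in the pituitary and in the hypothalamus.

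Genes were counted as 2-fold different when the mean normalised count was at least 50 and the log2 fold at least 1 in size. All 3 genes were 2-fold higher in the ovary by that rule, where 12.3% of 10902 genes were, 7.95% were 2-fold lower and 20.3% passed in either direction. Scaling the ovary libraries to equal totals lowered the log2 ratio of every gene there by 0.20, and gave 1044 genes higher and 1220 lower, against 1343 higher and 867 lower in the main scaling. With that scaling MMP13, TIMP1 and POSTN had log2 folds of 11.14, 3.84 and 3.30. In the hypothalamus 2 of the 3 passed the floor of 50, and POSTN was 2-fold lower, where 1.04% of 11390 genes were. In the pituitary 2 of the 3 passed it and neither was 2-fold different, where 1.20% of 10720 genes were 2-fold higher and 1.90% lower. The genes were chosen with these values known, so nothing is read from the counts. In RNA of whole organs, fewer cells of a type and less RNA per cell cannot be told apart.

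**Figure D2:**
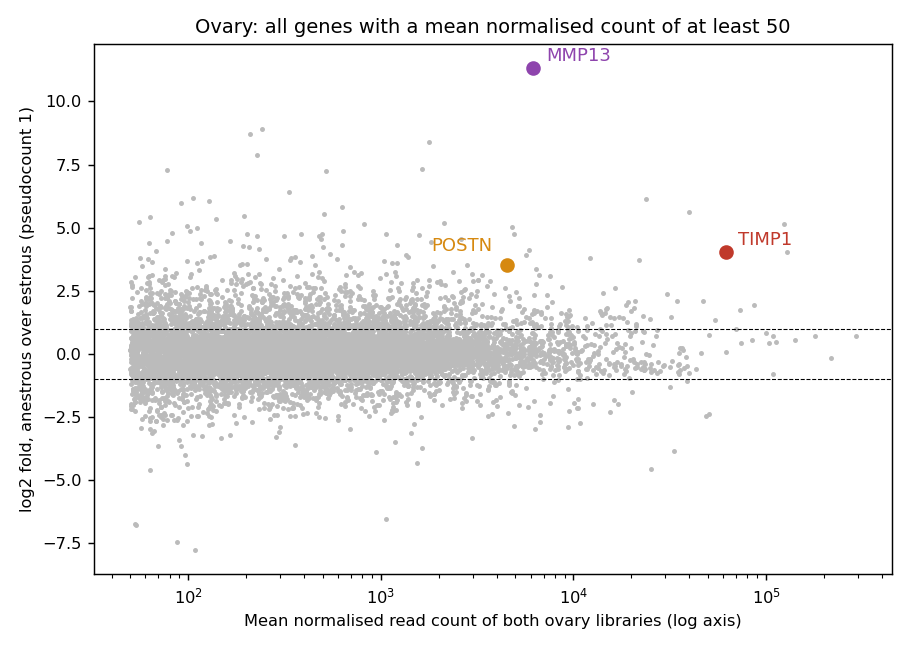
Log2 fold of the anestrous over the estrous ovary (pseudocount 1) against the mean normalised read count (log axis) for 10902 genes, with dashed lines at 2-fold. MMP13 at 11.32 is the topmost point, and TIMP1 at 4.04 and POSTN at 3.50 lie at places 54 and 85 of the order.

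Between tissues, the ovary stood above the pituitary and hypothalamus for all 3 genes in anestrous sows, and by far less or not at all in estrous sows. TIMP1 was 21.7 times as high in the ovary as in the pituitary of anestrous sows (21.1 to 22.3), and 2.64 times in estrous sows (2.53 to 2.75). Against the hypothalamus the TIMP1 ratio was 659 in anestrous sows (565 to 773) and 31.3 in estrous sows (27.5 to 35.8). POSTN was 9.26 times as high in the ovary as in the pituitary of anestrous sows (8.64 to 9.92). In estrous sows that ratio was 0.725 (0.661 to 0.796), so the ovary was below the pituitary. With the 0 reads of the pituitary library set to a floor of 3, MMP13 was 4196-fold higher in the ovary than in the pituitary of anestrous sows. With the 0 reads kept, the exact interval of the ratio began at 3412. In estrous sows its ratio of ovary to pituitary was 1.46 with an interval from 0.248 to 9.997, which includes equal levels. The estrous ratio of MMP13 in the ovary to the hypothalamus was 0.494 (0.109 to 1.85). The 10 genes with most reads took 35.9% and 33.3% of reads in the anestrous and estrous pituitary and 8.55% to 21.9% in the others. With those genes left out of the totals the ovary to pituitary ratios of TIMP1 were 15.7 in anestrous and 1.92 in estrous sows.

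Over the 6 libraries the profiles of TIMP1 and POSTN were close in shape. Pearson's r of log2(CPM + 1) was 0.98 between TIMP1 and POSTN, 0.73 between MMP13 and TIMP1 and 0.69 between MMP13 and POSTN. These are descriptions over 6 libraries that share tissues and totals. Among 10888 genes with a symbol and at least 5 CPM in some library, the 5 most like MMP13 by r were CYP7A1, S100A8, ANKRD1, HTR3C and DROSHA, with r between 0.996 and 0.999. CYP7A1 gave 26.7 CPM in the anestrous ovary, 0.0646 in the estrous ovary and 0 in the other 4 libraries. S100A8 gave 38.6 and 0.452 CPM in the anestrous and estrous ovary. The 5 most like TIMP1 were SUSD1, ST7, POLG, ARID3A and ZNF628, and the 5 most like POSTN were HCST, VIMP, BAX, BCAR1 and PRRX2. SUSD1 was like TIMP1 in shape but not in the size of its differences, and gave 11.8 and 6.07 CPM in the anestrous and estrous ovary. PRRX2, a homeobox gene of mesenchyme, gave 49.4 and 6.78 CPM there.

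Measured by distance between centred profiles, which also weighs the size of the differences, the nearest genes were other ones. S100A12, MSMB, FN1, SMPDL3B and UNC45B were nearest to MMP13, CTSH, COL15A1, LGALS3, PRSS23 and POSTN to TIMP1, and SDC1, TSKU, STXBP2, KDELR3 and COL15A1 to POSTN. FN1, which encodes fibronectin, gave 14081 and 461 CPM in the anestrous and estrous ovary. SDC1, which encodes the proteoglycan syndecan-1, gave 315 and 40.0 CPM. COL15A1, a collagen gene, gave 133 and 38.2 CPM.

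The neighbours of the 3 genes in the genome bear on how reads were assigned, since the use of strand in counting was not given in the sources used here. In the RefSeq annotation of Sscrofa11.1, MMP13 ends a row of metalloproteinase genes (MMP7, MMP20, MMP27, MMP8, MMP1, MMP3 and MMP12). Of these 7, only MMP1 had more than 6 reads in an ovary library, with 716 reads in the anestrous and 28 in the estrous one. Unnamed pseudogenes lie on either side of MMP13, and whether any reads were divided with them was not tested. DCUN1D5, on the other side of MMP13, gave 355 and 421 reads. TIMP1 lies within SYN1, a synapsin gene of neurons, so reads of the 2 genes may overlap. SYN1 gave 168 and 117 reads in the anestrous and estrous ovary, where TIMP1 had 111595 and 7347. In the hypothalamus SYN1 gave 8269 and 6077 reads in the anestrous and estrous library against 163 and 232 of TIMP1. In the pituitary SYN1 gave 2312 and 1987 reads against 5431 and 3059 of TIMP1. Such overlap could touch the TIMP1 values of both tissues, and most of all the low ones of the hypothalamus. Its part in them was not tested.

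Among the other metalloproteinases of the ovary, 17 of 22 listed genes were found and 11 passed the floor. Of these 11, 3 were 2-fold higher in the anestrous ovary and none was lower, beside 12.3% higher and 7.95% lower of all ovarian genes. The median log2 fold was 0.27 against 0.02 for all ovarian genes. MMP1, the interstitial collagenase, gave 716 and 28 reads in the anestrous and estrous ovary, a ratio of 27.7 (19.0 to 42.0). MMP19 gave 5074 and 734 reads, a ratio of 7.49 (6.93 to 8.11). MMP25, a membrane-anchored enzyme of leukocytes, gave 115 and 41 reads, and MMP15 gave 584 and 399. MMP14 and MMP2, which encode enzymes that can activate the MMP13 precursor, were within 2-fold. MMP14 gave 28168 and 23591 reads (ratio 1.29, 1.27 to 1.32) and MMP2 gave 37701 and 36313 (ratio 1.13, 1.11 to 1.14). MMP9, gelatinase B, gave 1728 and 1554 reads (ratio 1.20, 1.12 to 1.29). MMP3, another activator, gave 0 and 2 reads and MMP8, the neutrophil collagenase, 0 and 0.

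The inhibitors were split. TIMP2 gave 11306 and 5403 reads in the anestrous and estrous ovary, a ratio of 2.27 (2.20 to 2.34), and TIMP3 gave 978 and 629, a ratio of 1.69 (1.52 to 1.87). With equal totals TIMP2 was no longer 2-fold higher. TIMP4 had 6 and 10 reads. RECK, a membrane-bound inhibitor, gave 445 and 960 reads (ratio 0.502, 0.448 to 0.563). A2M, a protease trap, gave 28465 and 51756 reads (ratio 0.596, 0.587 to 0.605), and TFPI2, an inhibitor of serine proteases that is found in matrix, gave 2971 and 12466 (ratio 0.258, 0.248 to 0.269). Of 5 such genes over the floor other than TIMP1, 1 was 2-fold higher and 1 was 2-fold lower (median -0.75). By the same rule 12.3% of all ovarian genes were higher and 7.95% lower. In the pituitary TIMP1 was 1.88 times as high in the anestrous library. TIMP2 gave 7625 and 4804 reads there (ratio 1.68, 1.62 to 1.74) and A2M 6348 and 2593 (ratio 2.59, 2.48 to 2.72). TIMP3 (ratio 0.745, 0.642 to 0.865) and TFPI2 (ratio 0.765, 0.697 to 0.840) were lower. RECK had a ratio of 0.974 (0.791 to 1.20). Of these 5 genes other than TIMP1, 1 was 2-fold higher and none was 2-fold lower (median -0.04). Among all pituitary genes, 1.20% were 2-fold higher and 1.90% lower.

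**Figure D3:**
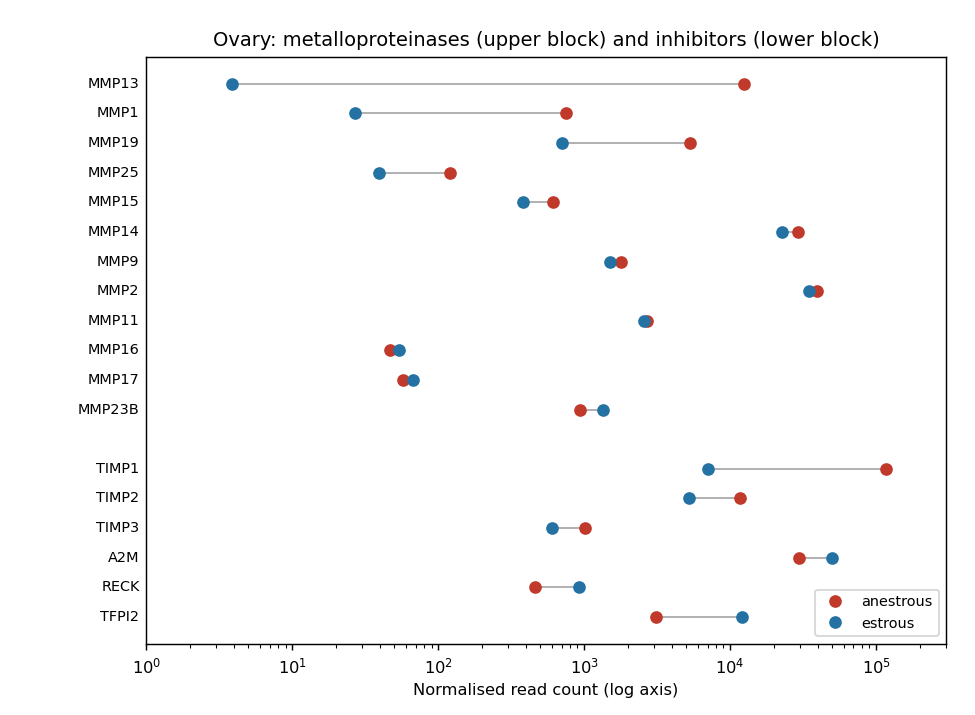
Normalised read counts (log axis) in the anestrous and estrous ovary for metalloproteinase genes (upper block) and inhibitor genes (lower block) with a mean of at least 50, ordered by log2 fold within a block. MMP13 spans 12390 and 3.84 and TIMP1 spans 116171 and 7058, while MMP14, MMP2 and MMP9 differ little. Levels are not scaled by gene length and are not compared between genes.

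Genes of other protease systems of the matrix differed in both directions between the ovary libraries, where 12.3% of all genes were 2-fold higher and 7.95% lower. Of 23 rows of ADAM and ADAMTS genes over the floor (ADAM17 and ADAMTS1 have 2 each), 7 were 2-fold higher and 4 were 2-fold lower (median log2 fold 0.44), with log2 folds of 2.43 for ADAM12, 2.32 for ADAM8, 1.67 for ADAMTS5 and 1.65 for ADAM9. Of 5 plasminogen activation genes over the floor, 3 were 2-fold higher and 1 was 2-fold lower (median 1.34). PLAUR, the urokinase receptor gene, gave 2050 and 264 reads in the anestrous and estrous ovary (ratio 8.42, 7.40 to 9.60). PLAT and PLAU, the genes of both plasminogen activators, had log2 folds of 1.59 and 1.34. SERPINE2, which encodes an inhibitor of serine proteases, gave 15541 and 88202 reads (ratio 0.191, 0.188 to 0.194). Of 12 cathepsin and legumain genes, all over the floor, 6 were 2-fold higher and 1 was 2-fold lower (median 1.25), with log2 folds of 2.11 for CTSH, 2.04 for CTSZ, 1.87 for CTSC and -1.82 for CTSL.

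The collagens that such enzymes act on were split in direction. Of 7 fibrillar collagen genes over the floor, 1 was 2-fold higher and 1 was 2-fold lower (median 0.56). The shares of all ovarian genes were 12.3% higher and 7.95% lower. COL5A2 gave 21180 and 7382 reads in the anestrous and estrous ovary (3.11, 3.03 to 3.19), and COL5A1 had a log2 fold of 0.87. COL1A2, a chain of type I collagen, gave 76728 and 143153 reads (ratio 0.581, 0.576 to 0.586), and COL27A1 had one of -1.11. No row carried the name COL1A1 or COL2A1, and these genes are not analysed here. Of 16 rows of basement membrane genes over the floor (NID1 has 2) none was 2-fold higher and 3 were 2-fold lower (median -0.13). Their log2 folds were -1.34 for LAMB3, -1.16 for COL4A4 and -1.12 for LAMA3, with -0.99 for LAMB2. Of 15 genes of collagen assembly and crosslinking, 5 were 2-fold higher and 1 was 2-fold lower (median 0.46). PCOLCE2, an enhancer of procollagen processing, gave 2155 and 191 reads (ratio 12.2, 10.5 to 14.3). The lysyl oxidase genes LOXL4 and LOX had log2 folds of 2.83 and 1.96, and P4HA3, which hydroxylates proline, one of 1.93.

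POSTN belongs with the matricellular proteins, and several of these were higher in the anestrous ovary. Of 17 genes over the floor, 6 were 2-fold higher and 4 were 2-fold lower (median 0.43), beside 12.3% and 7.95% of all ovarian genes. TNC, which encodes tenascin-C, a partner of periostin, gave 8970 and 298 reads in the anestrous and estrous ovary, a ratio of 32.6 (29.1 to 36.7). SPP1 (osteopontin) gave 39285 and 3238 reads (ratio 13.1, 12.7 to 13.6). FBLN2 and THBS1 had log2 folds of 2.23 and 2.08. TGFBI, the closest relative of POSTN, gave 2497 and 1985 reads (ratio 1.36, 1.28 to 1.45), well below the POSTN ratio of 11.3.

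Of 11 binding partners and receptors of the 3 proteins, all over the floor, 5 were 2-fold higher and none was 2-fold lower (median 0.91). Among all ovarian genes, 12.3% were 2-fold higher and 7.95% lower. FN1 gave 231444 and 7143 reads in the anestrous and estrous ovary (35.1, 34.3 to 36.0). ITGB3 and ITGAV, which encode an integrin pair that binds periostin, gave 2703 and 483 reads (ratio 6.06, 5.50 to 6.70) and 7877 and 2261 reads (ratio 3.78, 3.60 to 3.96). MRC2, a receptor that takes up cut collagen, had a log2 fold of 1.24. CD63, a cell-surface partner of TIMP1, gave 17070 and 12441 reads (ratio 1.49, 1.45 to 1.52). In the hypothalamus, where POSTN was lower in the anestrous library, TNC gave 519 and 911 reads (ratio 0.588, 0.527 to 0.656) and FN1 1094 and 1936 (ratio 0.583, 0.541 to 0.628). In the pituitary TNC gave 1209 and 859 reads (ratio 1.49, 1.37 to 1.63) and FN1 1777 and 2163 (ratio 0.871, 0.817 to 0.927).

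Among cytokines and receptors known to act upstream of these genes, 15 passed the floor in the ovary. Of these, 4 were 2-fold higher and 2 were 2-fold lower (median 0.52), where 12.3% and 7.95% of all ovarian genes were. The log2 fold was 1.84 for TGFBR1, 1.51 for IL4R, 1.47 for OSM (oncostatin M) and -1.81 for IL11RA. IL6, IL4, IL13 and IL17A had 0 reads in both ovary libraries, TNF had 6 and 1, and IL1B was not found by name. MMP13 transcription is known to depend on AP-1 and RUNX factors. Of 10 such factors and relatives over the floor, 4 were 2-fold higher and 1 was 2-fold lower (median 0.52). FOSL1, which encodes the AP-1 subunit FRA1, gave 215 and 10 reads in the anestrous and estrous ovary (23.3, 12.4 to 49.3), while FOS gave 2096 and 9853 (ratio 0.231, 0.220 to 0.242). RUNX1 and FOSL2 had log2 folds of 1.75 and 1.50. RUNX2 occurs at 2 places in the tables, with 1535 and 779 reads at one and 18 and 3 at the other, so its reads may be divided.

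**Figure D4:**
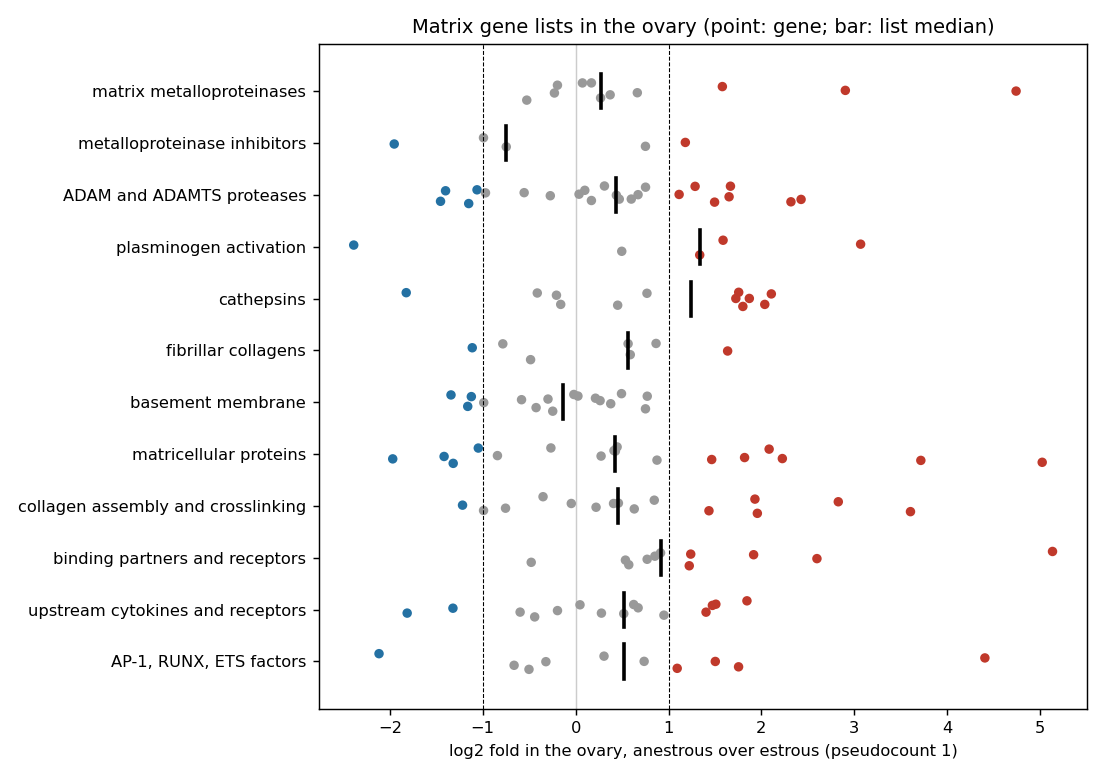
Log2 fold of the anestrous over the estrous ovary (pseudocount 1) for genes of 12 matrix-related lists with a mean normalised count of at least 50, with list medians as bars and dashed lines at 2-fold. FN1 at 5.13, TNC at 5.02, MMP1 at 4.74 and FOSL1 at 4.41 lie farthest to the right.

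Taken over the 12 lists without MMP13, TIMP1 and POSTN, 147 rows passed the floor in the ovary. Of these, 45 were 2-fold higher (30.6%) and 19 were 2-fold lower (12.9%), beside 12.3% and 7.95% of all ovarian genes. The lists were chosen with earlier results known, so these shares describe them only. In the hypothalamus 1 of 125 was 2-fold higher, MMP25 with 139 and 58 reads in the anestrous and estrous library. Also 1 was lower there, CYR61 with 74 and 157. Each is 0.8%, beside 1.29% higher and 1.04% lower of all hypothalamic genes. In the pituitary 5 of 121 were 2-fold higher (A2M, ADAMTS2, ADAMTS14, THBS3 and SPP1) and 2 were lower (ADAMTS7 and TGFB3). These are 4.13% and 1.65%, beside 1.20% and 1.90% of all pituitary genes. SPP1 gave 5094 and 2162 reads there (2.50, 2.37 to 2.63).

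Markers of several cell types differed between the same ovary libraries, where 12.3% of all genes were 2-fold higher and 7.95% lower. Of 9 macrophage genes over the floor 7 were 2-fold higher and none was 2-fold lower, and the summed CPM of the 11 genes was 2112 in the anestrous and 1268 in the estrous ovary. CD163 had 1 and 11 reads. The neutrophil list summed to 330 and 4.71 CPM over 6 found genes, nearly all from S100A8, S100A9, S100A12 and LTF. The granule genes MPO and ELANE had 12 and 0 and 2 and 1 reads, and the listed genes CXCR2 and CSF3R were not found by name. S100A8, S100A9 and S100A12 are known in macrophages too. Fibroblast and stroma markers summed to 3694 and 6564 CPM over 10 rows, with 1 of 9 rows over the floor 2-fold higher (LUM) and 2 lower. Smooth muscle markers summed to 4638 and 6921 CPM over 5 genes, with 2 of 5 lower.

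Granulosa markers summed to 1075 and 6512 CPM in the anestrous and estrous ovary, with 6 of 6 genes 2-fold lower. Among all ovarian genes 7.95% were 2-fold lower and 12.3% higher. Theca and luteal markers summed to 3741 and 9694 CPM, with 5 of 6 lower and 1 higher. Oocyte markers summed to 53.2 and 173.5 CPM, with 4 of 5 lower. Of the bone and cartilage list, where MMP13 is well known, 4 rows passed the floor in the ovary. Of these, IBSP with 879 and 36 reads and RUNX2 with 1535 and 779 were 2-fold higher, and none was 2-fold lower. With equal totals RUNX2 was no longer 2-fold higher. BGLAP gave 43 and 85 reads. Under the floor, SP7 gave 5 and 8 reads, ACAN 19 and 28 and COL10A1 2 and 2. Of the osteoclast list OCSTAMP had 0 reads in both ovary libraries, DCSTAMP 10 and 0, and CTSK 9434 and 7470. Its 4 genes over the floor held 1 that was 2-fold higher, ITGB3. Mast cell markers summed to 102 and 234 CPM, with 1 of 3 lower. Endothelium (778 and 803 CPM, 6 genes) and lymphocyte markers (43.1 and 47.1 CPM, 8 genes) held no gene over the floor that was 2-fold different. Epithelium and mesothelium markers summed to 32.5 and 57.8 CPM, with 1 of 3 higher and 2 lower. The part of these cell types in the values of MMP13, TIMP1 and POSTN was not tested.

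**Figure D5:**
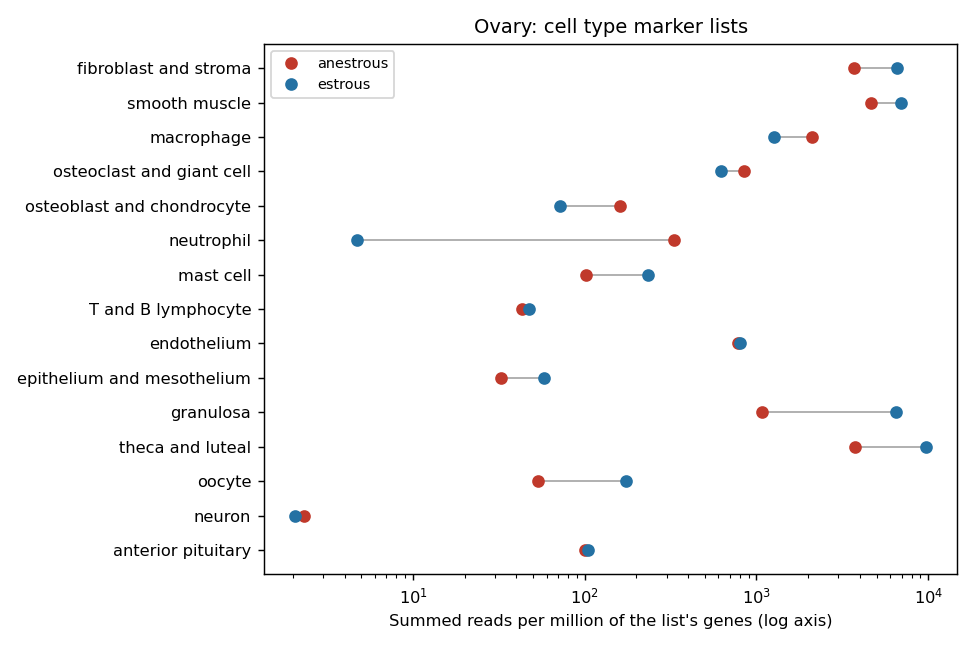
Summed CPM (log axis) of the found genes of 15 cell type marker lists in the anestrous and estrous ovary. Macrophage (2112 and 1268) and neutrophil lists (330 and 4.71) are higher in the anestrous ovary, and fibroblast (3694 and 6564), granulosa (1075 and 6512) and oocyte lists (53.2 and 173.5) are lower.

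In the pituitary the fibroblast and stroma list was lower in the anestrous library, with 260 and 543 CPM. Of these sums THY1 alone gave 119 and 328 CPM. There 2 of 7 rows over the floor were 2-fold lower, THY1 and COL14A1 (PDGFRB has 2 rows), beside 1.90% of all pituitary genes. POSTN was lower there as well and TIMP1 higher. In the hypothalamus fibroblast markers summed to 1064 and 761 CPM in the anestrous and estrous library, of which THY1, known in neurons too, gave 1001 and 678. None of 7 such rows over the floor was 2-fold different, beside 1.29% higher and 1.04% lower of all hypothalamic genes. All 8 of 8 fibrillar collagen genes were below their estrous values, each by less than 2-fold (median -0.62). Among all hypothalamic genes over the floor, 51.55% were above their estrous values (median 0.01). The part of stroma in the POSTN values of either tissue was not tested.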

How the data were processed

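The authors deposited 1 table per tissue. Per the file headers it holds a normalised signal (a count divided by a size factor) of each library and a p-value and adjusted p-value. DESeq is named per the labels, and TopHat2 2.1.0 per the submitters' processing notes. For the counter, genome build, annotation and strand setting, none is given in the sources used here. Whole reads were recovered by dividing by each column's smallest value above 0 (100% whole within 0.01 of a read). Symbols came from the tables (12762 genes), then from a table of Ensembl names (14419 in all). Members and lists were chosen with earlier results of these data known. For each list, up to 4 genes with the largest absolute ovarian log2 fold are named; other genes were named after their values were seen. Alternatives changed scaling, pseudocount and floor or added the authors' adjusted p. A count test, blocked on tissue, ran in R 4.3.3 (edgeR 4.0.16, and DESeq2 1.42.0 as a check). Ratios used Python 3.11.15 and scipy 1.17.1. The fold rule and the count test were tested on simulated data.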

Additional observations from a re-analysis of the deposited data

Results flagged for a closer look

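TIMP1 and POSTN differed between tissues in direction, with counting intervals on opposite sides of equal levels. Each tissue and state had 1 library, so none of these differences was tested. TIMP1 was 16.5 times as high in the anestrous as in the estrous ovary and 0.725 times in the hypothalamus, so its log2 folds differed by 4.50. The TIMP1 ratio in the pituitary was 1.88, and its log2 fold there was 1.37 above that in the hypothalamus. POSTN had a ratio of 11.3 in the ovary, 0.442 in the hypothalamus and 0.837 in the pituitary. The log2 fold of POSTN in the ovary was 4.66 above that in the hypothalamus and 3.76 above that in the pituitary.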

How the results depend on the processing

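No replicate block could be fitted, since the labels give no replicate numbers and each group has 1 library; states were paired only within tissues, in the count test below. With equal totals the log2 folds of TIMP1 were 0.80 in the pituitary and 3.84 in the ovary, and that of POSTN in the ovary was 3.30; no log2 fold of MMP13, TIMP1 or POSTN changed sign under equal totals, a trimmed mean of log ratios or a pseudocount of 5. Without the 10 genes with most reads in the totals, the anestrous ovary to pituitary ratio of MMP13 was 3039 with a floor of 3. Likewise the ratios of TIMP1 were 15.7 and 1.92, and those of POSTN 6.70 and 0.529, in anestrous and estrous sows. The estrous ovary to hypothalamus ratio of TIMP1 was then 27.3. Genes counted as 2-fold higher and lower with no floor numbered 845 and 877 for hypothalamus, 965 and 1139 for pituitary and 2534 and 2223 for ovary; 75 and 29, 48 and 84, and 880 and 501 with a floor of 200; and 67 and 31, 36 and 50, and 92 and 15 where the authors' adjusted p had also to be at most 0.05. With equal totals they were 114 and 164 in the hypothalamus and 99 and 272 in the pituitary. Under the authors' adjusted p the 12 lists together kept 6 higher and 0 lower genes in the ovary, with 2 higher in collagen assembly, 1 each in metalloproteinases, plasminogen activation, matricellular proteins and transcription factors, and 0 in every other list and direction. With equal totals the inhibitors had 0 higher and 2 lower and collagen assembly 2 lower. With no floor, metalloproteinases had 1 lower, fibrillar collagens 2 higher and cytokines 8 higher; with a floor of 200, basement membrane had 0 lower and transcription factors 2 higher. The count test over all 6 libraries takes the 3 tissues in place of replicates, though they are different organs. At an adjusted p of at most 0.05, edgeR's quasi-likelihood test called 0 of 13533 genes (484 at an unadjusted p under 0.05) and DESeq2 48; edgeR called 66 without the ovary libraries. MMP13 did not pass the filter on low counts. Without that filter edgeR's test gave MMP13 a log2 fold of 7.53 (adjusted p 0.983). With the filter, edgeR's fit gave TIMP1 a log2 fold of 1.41 (adjusted p 0.973) and POSTN 0.65 (0.975). These became 0.31 (0.875) and -0.57 (0.503) without the ovary libraries, 2.48 and 1.62 (both 1) without the hypothalamus libraries, and 1.80 and 1.34 (both 0.996) without the pituitary libraries. The genes most like each of the 3 by correlation shared 0 of 5 with those by distance. Depth limits MMP13 outside the anestrous ovary, where no library had more than 8 reads.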

Other observations

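MMP13 was 1 of 8 genes with at least 100 reads in the anestrous ovary and no more than 10 in each of the other 5 libraries, limits that were chosen after its values were seen. The others were CYP7A1 with 439 reads, LAMP3 with 261, NAGS with 207, TREM1 with 190, GZMA with 111, ANKRD1 with 105 and CCL17 with 102, beside 11902 for MMP13. CYP7A1 encodes the first enzyme of bile acid synthesis from cholesterol, LAMP3 and CCL17 are known from dendritic cells, and TREM1 is a receptor of myeloid cells. No other gene of this pattern had more than 439 reads. SNCG, the gene after MMP13 in the ovarian order of log2 fold and chosen here after its values were seen, had another pattern. It gave 466 and 0 reads in the anestrous and estrous ovary, 387 and 0 in the anestrous and estrous pituitary and 137 and 2 in the anestrous and estrous hypothalamus.

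The tables' own annotation terms of the 3 genes gave sets that were described and not tested, and those named here were picked after their values were seen. They stand beside 12.3% of all ovarian genes 2-fold higher and 7.95% lower. Of 10 genes of collagen catabolic process, all over the floor in the ovary, 4 were 2-fold higher and 0 lower. Of 73 cell adhesion genes over the floor 26 were 2-fold higher and 5 lower. Of 82 genes of proteinaceous extracellular matrix 20 were higher and 19 lower. Terms with more genes lower than higher were bone mineralization with 2 higher and 4 lower of 11, and tissue development with 1 higher and 4 lower of 8. MMP13 belongs to the sets of collagen catabolic process and bone mineralization, and POSTN to those of cell adhesion and tissue development. Both TIMP1 and POSTN belong to proteinaceous extracellular matrix. The counts of these sets include MMP13, TIMP1 and POSTN themselves among the genes 2-fold higher, and these were chosen with their values known. Within 5 places of TIMP1 in the ovarian order of log2 fold stood CXCL14 (10698 reads in the anestrous and 671 in the estrous ovary), CLU (231447 and 15486) and ECM1 (10181 and 731). Within 5 places of POSTN stood CHI3L1 (3274 and 321), ENPP1 (7937 and 831) and SELPLG (4938 and 467).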
